A study of Homo sapiens with 12 samples.

Results

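The expression of 10 genes of the retinoid pathway was examined in LNCaP prostate cancer cells: the retinal-oxidizing enzymes ALDH1A1, ALDH1A2 and ALDH1A3, the retinol and retinal oxidoreductases RDH10, RDH11, RDH16 and DHRS3, the retinoic acid carrier CRABP2, and the retinoic acid receptors RARA and RARG. The 10 genes were found by symbol among the 63677 Ensembl gene identifiers counted in each of the 12 samples, and all 10 passed the filter of at least 10 counts summed over the samples. They were chosen by their place in this pathway, and ALDH1A1 and RDH16 also by their values. ALDH1A1 was selected on its low level in the knockout line, and RDH16 on responses that differed between the lines, so those values are described here with no test.

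To follow what loss of the cochaperone Bag-1L does to androgen-dependent expression, poly(A) RNA was sequenced from a TALEN control line and a Bag-1L KO line of LNCaP, an established androgen-responsive line. A TALEN, an engineered nuclease, had removed the CTG start codon of Bag-1L, the longest protein made from BAG1, and left the start codons of the shorter Bag-1 proteins in place. Both lines carry the mutations of LNCaP, including a mutated androgen receptor. Cells of each line grew in full medium (FM), or were kept for 72 h without hormone in charcoal-stripped serum before 16 h with vehicle (ethanol, EtOH) or 10 nM of the androgen dihydrotestosterone (DHT). This gave 6 groups, with 2 biological replicates each: control FM, KO FM, control EtOH, KO EtOH, control DHT and KO DHT. FM and EtOH groups differ at once in serum, in the 72 h without hormone and in the vehicle. FM against EtOH cannot tell these apart, and is not a comparison of androgen alone. KO cells were derived from single cells by serial dilution, and the replicates of a line are cultures of that line. A property of the clone and the loss of Bag-1L therefore cannot be told apart in any comparison of KO with control.

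Retinol taken up from blood is oxidized to retinal by retinol dehydrogenases such as RDH10, and reduced back to retinol by enzymes such as DHRS3 and RDH11. The ALDH1A enzymes oxidize retinal to retinoic acid, a step that does not run backward. CRABP2 carries retinoic acid to nuclear receptors such as RARA and RARG, which bind DNA with an RXR partner, and the CYP26 enzymes break retinoic acid down. ALDH1A1 and ALDH1A3 are also widely used as markers of stem-like cells in epithelial tumors, and RDH11 was first found as an androgen-regulated gene of the prostate.

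The promoters of the 3 genes whose RNA differed most between the lines are shown first, because they place the changes in the genome and differ in base composition. Each is a RefSeq window of 250 bases before to 50 bases after an annotated start, given 5′ to 3′ on the strand of the gene and matched exactly to GRCh37. The ALDH1A1 window lies at chr9:75567920-75568219 (minus strand), the ALDH1A3 window at chr15:101419786-101420085 (plus strand) and the RDH16 window at chr12:57351343-57351642 (minus strand). The RARA window at chr17:38465182-38465481 (plus strand) is added because it holds the hexamer recognized by retinoid receptors, AGGTCA, in capitals.
ALDH1A1: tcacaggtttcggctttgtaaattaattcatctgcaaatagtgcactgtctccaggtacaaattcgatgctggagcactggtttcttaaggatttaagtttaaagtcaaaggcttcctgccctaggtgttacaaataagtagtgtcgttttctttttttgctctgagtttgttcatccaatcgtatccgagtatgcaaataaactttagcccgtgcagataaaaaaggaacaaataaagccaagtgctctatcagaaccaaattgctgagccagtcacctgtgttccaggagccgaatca
ALDH1A3: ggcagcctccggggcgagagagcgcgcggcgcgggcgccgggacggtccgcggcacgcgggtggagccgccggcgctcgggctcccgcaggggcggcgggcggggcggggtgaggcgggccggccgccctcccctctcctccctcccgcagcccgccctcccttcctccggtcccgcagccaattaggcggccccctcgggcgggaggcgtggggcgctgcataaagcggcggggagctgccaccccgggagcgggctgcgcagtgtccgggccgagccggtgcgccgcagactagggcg
RDH16: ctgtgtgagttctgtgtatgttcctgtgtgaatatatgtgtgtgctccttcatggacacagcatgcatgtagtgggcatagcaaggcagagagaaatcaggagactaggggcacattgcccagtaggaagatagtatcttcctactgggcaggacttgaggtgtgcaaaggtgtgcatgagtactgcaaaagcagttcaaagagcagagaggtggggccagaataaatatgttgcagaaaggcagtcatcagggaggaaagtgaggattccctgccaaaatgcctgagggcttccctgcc
RARA: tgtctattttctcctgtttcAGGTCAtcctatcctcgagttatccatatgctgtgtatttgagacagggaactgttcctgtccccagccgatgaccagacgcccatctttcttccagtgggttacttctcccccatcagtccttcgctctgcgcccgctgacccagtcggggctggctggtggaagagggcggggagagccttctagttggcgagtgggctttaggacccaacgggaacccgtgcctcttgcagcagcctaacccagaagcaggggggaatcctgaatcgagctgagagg
The ALDH1A1 window had 40.3% G or C and 7 CpG dinucleotides, the ALDH1A3 window 81.7% and 46, and the RDH16 window 49.3% and 0, where the median over all windows was 58.7% and 14. Windows were available for 9 of the genes, 14 windows in all. RDH10 was not searched. On both strands, AGGTCA was found in 2 of the 14 windows (1 of DHRS3 and 1 of RARA) and the androgen receptor hexamer AGAACA in 1 (of ALDH1A2), against 13.8% and 14.8% of all 35093 windows. None of the 14 held AGGTCA as a direct repeat with a gap of 2 or 5 bases, or AGAACA as an inverted repeat with a gap of 3. Such repeats occurred in 0.00285%, 0.0057% and 0.00285% of all windows.

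Gene counts summed to between 20826843 and 30354666 per sample, so that 3 counts equal 0.0988 to 0.144 CPM, a count scaled to library size. Replicates differed most in control EtOH (median absolute log2 difference 0.238 over 11374 genes) and least in KO FM (0.076). BAG1, whose counts include the shorter Bag-1 forms and so check the labels only in part, was lower in KO by 0.94 on the log2 scale in EtOH (SE 0.18, DESeq2 adjusted p = 6.35e-06) and by 1.14 in DHT (adjusted p = 7.71e-09), and did not pass in FM (log2 fold change -0.43, adjusted p = 0.0682). The 8 luminal prostate and LNCaP markers summed to between 67112.4 and 143094.0 normalized counts in every sample. The 3 basal markers summed to between 2.8 and 32.9, the blood cell markers PTPRC and CD68 to at most 3.0 and the 3 neuroendocrine markers to between 21.4 and 80.7. The 4 stromal markers summed to between 396.4 and 1052.0, nearly all of it COL1A1 (group means 392.3 to 992.5), while COL1A2 and DCN had group means of at most 4.6 and 6.9. In bulk RNA, fewer cells that express a gene and less RNA per cell cannot be told apart.

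ALDH1A1 (ENSG00000165092; GRCh37 chr9:75515587-75695358, minus strand) was the gene selected on its level in KO. Its normalized counts in control were 1900.6 and 1979.4 in FM, 271.2 and 269.6 in EtOH, and 525.0 and 602.2 in DHT. In KO they were 95.1 and 101.9 in FM, 17.0 and 11.3 in EtOH, and 42.8 and 30.9 in DHT. Every KO sample lay below every control sample, whatever the medium. The KO level was 19.7-fold lower for FM samples, 19.5-fold lower for EtOH and 15.1-fold lower for DHT, as a description of the values that chose the gene. No exon of ALDH1A1 overlaps another counted gene, and none of its 50-base words occurs in a transcript of another gene, so its counts are not shared with a paralog.

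Although low, ALDH1A1 still responded in KO. DHT raised it in control by 1.06 on the log2 scale (SE 0.15, 2.08-fold, adjusted p = 1.75e-10) and in KO by 1.42 (SE 0.35, 2.68-fold, adjusted p = 0.000654). The rise in KO rests on few counts and lost its call without KO DHT replicate 1 (log2 fold change 1.15, adjusted p = 0.0533) or without KO EtOH replicate 2 (1.14, adjusted p = 0.0974). FM against EtOH raised it more, by 2.84 in control (SE 0.15, 7.18-fold, adjusted p = 1.81e-78) and by 2.82 in KO (SE 0.32, 7.08-fold, adjusted p = 1.19e-16). Neither response was shown to differ between the lines. The difference in the DHT response was 0.36 (95% interval -0.38 to 1.11) and that in the FM response -0.02 (-0.72 to 0.68), which leaves room for differences of up to about these bounds on the log2 scale. The DHT and FM comparisons share the EtOH samples, and so are not independent of each other.

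ALDH1A3 (ENSG00000184254; chr15:101417919-101456831, plus strand) behaved differently from ALDH1A1. Its normalized counts in control were 366.6 and 387.1 in FM, 364.5 and 380.0 in EtOH, and 559.3 and 601.2 in DHT. In KO they were 698.6 and 713.5 in FM, 239.6 and 243.7 in EtOH, and 780.2 and 645.4 in DHT. The KO samples were thus below control in EtOH and above it in FM and DHT, with no overlap in any medium. KO against control was -0.62 in EtOH (SE 0.15, 1.54-fold lower, adjusted p = 0.00111) and 0.90 in FM (SE 0.14, 1.87-fold, adjusted p = 2.09e-08), and did not pass in DHT (0.30, SE 0.14, adjusted p = 0.127). These comparisons have no sample in common. The fall in EtOH lost its call without KO EtOH replicate 1 (log2 fold change -0.61, adjusted p = 0.0588) or replicate 2 (-0.63, adjusted p = 0.0561).

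The responses of ALDH1A3 differed between the lines. DHT raised it in control by 0.64 on the log2 scale (SE 0.14, 1.56-fold, adjusted p = 0.000104) and in KO by 1.56 (SE 0.15, 2.95-fold, adjusted p = 3.08e-24), and the difference of 0.92 passed the test (SE 0.21, adjusted p = 0.00371). FM left it at 0.02 against EtOH in control (SE 0.15, adjusted p = 0.942) and raised it by 1.55 in KO (SE 0.15, adjusted p = 7.42e-24), a difference of 1.53 (SE 0.21, adjusted p = 4.11e-10). The difference in the DHT response kept its size but lost its call in 4 of the 8 fits that left out a single replicate. It was 0.78 without KO DHT replicate 1 (adjusted p = 0.19), 0.91 without KO EtOH replicate 1 (adjusted p = 0.216), 0.94 without KO EtOH replicate 2 (adjusted p = 0.248) and 0.87 without control DHT replicate 1 (adjusted p = 0.0663). Of the exon bases of ALDH1A3, 33.3% also lie in exons of ALDH1A3-AS1 or of an unnamed gene, so part of its reads could be assigned to those genes or left out.

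ALDH1A2 (ENSG00000128918; chr15:58245622-58790065, minus strand), the main retinal dehydrogenase of the early embryo, was scarce. Its normalized counts were between 13.7 and 36.4 over the 12 samples, and it passed no test. Its largest difference was 0.61 for FM against EtOH in KO (SE 0.49, adjusted p = 0.387).

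Divided by exon length, so that the genes can be compared, the 3 ALDH1A genes summed to 757.1 ± 21.5 normalized counts per kb (SD, n = 2) in control FM and 171.2 ± 3.17 in KO FM. With EtOH the sums were 167.9 ± 0.131 for control and 52.99 ± 0.768 for KO. With DHT they were 309.9 ± 24.1 and 148.6 ± 20.3. In KO, ALDH1A3 was most of the sum. Its share was 77.32% ± 0.279 in KO FM, 85.51% ± 2.27 in KO EtOH and 89.9% ± 0.25 in KO DHT, against 9.33% ± 0.0936, 41.56% ± 1.19 and 35.13% ± 0.937 in the control groups. ALDH1A1 held 90.23% ± 0.0299 of the sum in control FM and 20.26% ± 0.613 in KO FM. These shares follow in part from the choice of ALDH1A1 and carry no test.

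**Figure D1:**
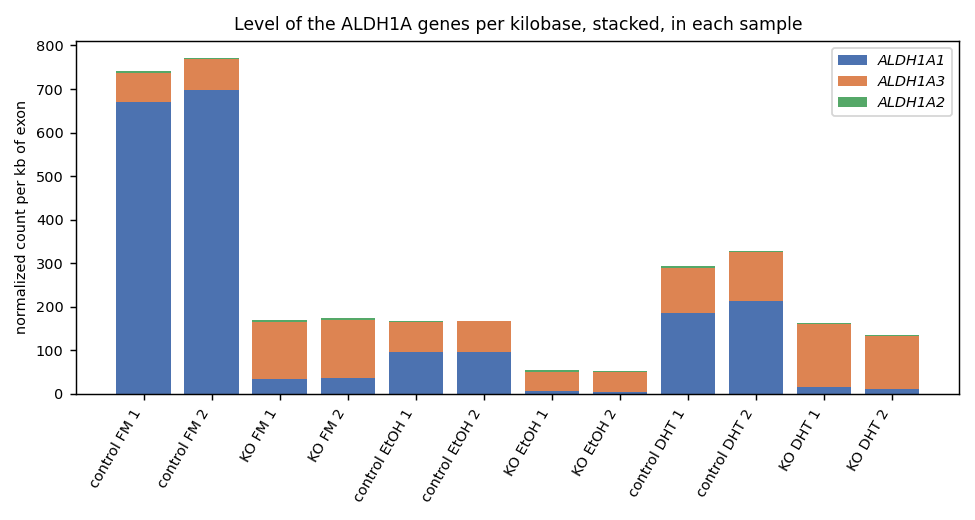
Normalized counts per kilobase of exon (vertical axis) of ALDH1A1, ALDH1A3 and ALDH1A2, stacked, in each of the 12 samples (horizontal axis, by group and replicate). The blue ALDH1A1 part is tallest in control FM (683.1 per kb on average) and thin in the 6 KO samples, where the orange ALDH1A3 part makes up most of each bar.

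RDH10 (ENSG00000121039; chr8:74206837-74237516, plus strand), the dehydrogenase that supplies retinal in the embryo, was raised by DHT in control. Its normalized counts were 262.6 and 262.6 in control EtOH and 462.4 and 546.7 in control DHT, a log2 fold change of 0.94 (SE 0.15, 1.92-fold, adjusted p = 2.87e-08). In KO they were 286.0 and 339.7 in EtOH and 376.0 and 340.6 in DHT, a change of 0.19 that did not pass (SE 0.15, adjusted p = 0.531). The DHT samples were well above the EtOH samples in control, while in KO the higher EtOH sample (339.7) was just under the lower DHT sample (340.6). The difference between the responses was -0.75 (95% interval -1.18 to -0.32) and missed the threshold after adjustment over all genes (adjusted p = 0.105). FM held 585.3 and 626.4 in control and 523.2 and 519.5 in KO, and passed against EtOH in both lines, by 1.21 (SE 0.15, adjusted p = 1.18e-13) and 0.73 (SE 0.15, adjusted p = 1.39e-05). Between lines, RDH10 was lower in KO under DHT by a log2 fold change of -0.49, with an adjusted p of 0.0104 (DESeq2) but a fold of 1.41, under the minimum of 1.5. Without control DHT replicate 1 the value was -0.61 (adjusted p = 0.00867), which passed. RDH10-AS1 covers 5.21% of the exon bases of RDH10 from the other strand.

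RDH11 (ENSG00000072042; chr14:68143517-68162510, minus strand), a retinal reductase of the prostate, was the most abundant of the 10 genes per kb in every group, from 763 ± 27.8 in control DHT to 1380 ± 38 in KO FM (SD, n = 2). Its normalized counts in control were 4595.1 and 4932.5 in FM, 5141.6 and 5087.0 in EtOH, and 4086.8 and 4303.2 in DHT. In KO they were 7441.1 and 7736.8 in FM, 6996.8 and 7113.7 in EtOH, and 6390.6 and 5824.8 in DHT. Every KO sample was above every control sample. The log2 fold change of KO against control was 0.46 in EtOH (SE 0.09, adjusted p = 3.69e-05), 0.54 in DHT (SE 0.09, adjusted p = 4.56e-07) and 0.67 in FM (SE 0.09, adjusted p = 1.49e-10). Only the FM value, 1.59-fold, passed the fold minimum, as the other 2 were 1.38-fold and 1.46-fold. Without KO DHT replicate 2 the DHT value also passed (0.61, adjusted p = 1.84e-05). Under DHT, RDH11 was slightly lower in both lines, with values of -0.29 in control (SE 0.09, adjusted p = 0.0167, 1.22-fold) and -0.21 in KO (SE 0.09, adjusted p = 0.143), neither of which passed.

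RDH16 (ENSG00000139547; chr12:57345215-57353158, minus strand), which oxidizes retinol and also 3-alpha-hydroxysteroids, was selected on responses that differed between the lines. Its normalized counts in control were 186.5 and 168.1 in EtOH and 94.9 and 81.7 in DHT, and in KO 175.2 and 190.1 in EtOH and 200.9 and 227.1 in DHT. The control samples were thus lower with DHT and the KO samples higher, while the lines overlapped in EtOH. As a description, the log2 fold change with DHT was -1.01 in control (SE 0.21) and 0.22 in KO (SE 0.19), a difference of 1.23. FM samples held 139.1 and 123.5 in control and 259.3 and 302.5 in KO, 2.14-fold higher in KO (log2 fold change 1.10, SE 0.20). FM against EtOH gave -0.44 in control and 0.62 in KO. These too are descriptions, since the choice may have used all groups. No exon of RDH16 overlaps another counted gene, and 0.231% of its 50-base words occur in transcripts of other genes.

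DHRS3 (ENSG00000162496; chr1:12627939-12678216, minus strand), a retinal reductase that retinoic acid induces in many cells, had normalized counts between 32.0 and 62.7 over the 12 samples. It passed no test, and its largest difference was 0.53 for DHT in KO (SE 0.35, adjusted p = 0.408). The ratio of RDH10 to DHRS3 per kb, 2 enzymes that act in opposite directions on retinal, was 3.602 ± 0.267 in control EtOH, 5.73 ± 0.611 in control DHT and 9.537 ± 2.74 in control FM. In KO it was 5.535 ± 2.07, 4.268 ± 0.973 and 7.728 ± 1.53 (SD, n = 2), and the KO values of EtOH and DHT differ by less than their spread.

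CRABP2 (ENSG00000143320; chr1:156669398-156675608, minus strand), which delivers retinoic acid to its receptors, had normalized counts between 10.5 and 30.8. Its means were lower in KO in each medium, at 14.9 against 25.4 in EtOH, 14.7 against 19.2 in DHT and 13.1 against 19.5 in FM, and no difference passed (DESeq2 adjusted p = 0.472, 0.701 and 0.518). At this depth the interval in EtOH ran from -1.84 to 0.30 on the log2 scale.

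RARA (ENSG00000131759; chr17:38465432-38513895, plus strand) and RARG (ENSG00000172819; chr12:53604351-53626764, minus strand) were present at like levels per kb, with RARA at 46.96% to 56.34% of their sum in the 6 groups. Of the exon bases of RARA, 11.7% lie in exons of the antisense gene RARA-AS1, and with the strand setting not given these reads may be misplaced or left out. The RARA replicates of a group often lay far apart. Its normalized counts were 651.9 and 432.7 in control EtOH, 568.4 and 365.2 with DHT and 440.6 and 359.9 in FM. In KO they were 562.9 and 687.0, 558.3 and 598.6, and 513.0 and 427.4, in the same order of media. The 3 media overlapped in control, and in KO the FM samples lay below those of EtOH and DHT. RARA passed no test in the fit of all samples, but passed in DHT for KO against control without control DHT replicate 1 (0.66, adjusted p = 0.0389) and for FM against EtOH in control without control EtOH replicate 2 (-0.70, adjusted p = 0.00671). RARG ranged from 413.6 to 586.4. It came nearest to a call in FM, where KO held 557.8 and 586.4 and control 460.5 and 423.1 (log2 fold change 0.37, SE 0.15, adjusted p = 0.0599).

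**Figure D2:**
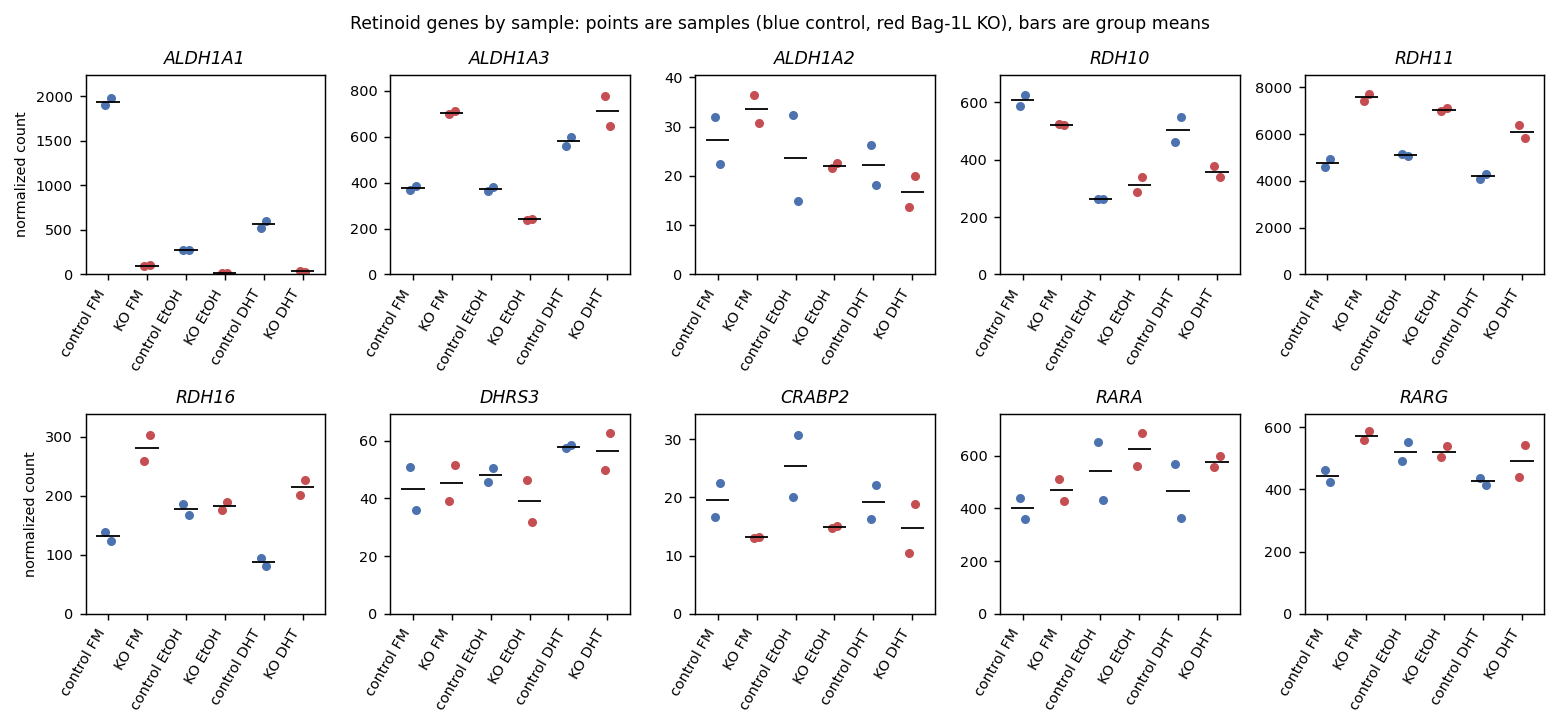
Normalized counts (vertical axis, from 0) of the 10 genes in the 6 groups (horizontal axis), with 1 point per sample (blue control, red Bag-1L KO) and a bar at each group mean. ALDH1A1 is lower in all KO samples, RDH11 is higher in all KO samples, and the replicates of RARA in control lie far apart (651.9 and 432.7 in EtOH).

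Counted together, the genes not chosen on a comparison can be read against the share of all tested genes that passed in it. To pass, a gene needed an adjusted p of 0.05 or less and a fold of 1.5 or more. With DHT in control, 3 of 9 passed, all higher (ALDH1A1, ALDH1A3 and RDH10), where 6.04% of 17535 genes tested were higher and 5.37% lower. With DHT in KO, 2 of 9 passed, both higher (ALDH1A1 and ALDH1A3), where 4.43% were higher and 3.24% lower. The response to DHT differed between the lines for 1 of 9, ALDH1A3, where 0.223% of 13478 genes were higher and 0.185% lower. ALDH1A2 and CRABP2 were too scarce for an adjusted p in that comparison. The median log2 fold change of the 9 was -0.09, -0.04 and 0.21 in these comparisons.

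Between the lines, 1 of 8 passed in EtOH (ALDH1A3, lower), where 2.80% of 16521 genes were higher in KO and 2.31% lower. In DHT, none of the 8 passed in DESeq2 or in edgeR, although 3 had an unadjusted p under 0.05, and 4.66% of 16014 genes were higher and 3.32% lower. In FM, 2 of 8 passed, both higher in KO (ALDH1A3 and RDH11), where 5.41% of 15000 genes were higher and 2.60% lower. FM against EtOH raised 2 of 9 in control (ALDH1A1 and RDH10), where 9.81% of 18549 genes were higher and 11.5% lower. It raised 3 of 9 in KO (ALDH1A1, ALDH1A3 and RDH10), where 9.61% were higher and 9.68% lower. The FM response differed for 1 of 9, ALDH1A3, where 0.748% of 12971 genes were higher and 0.640% lower, and ALDH1A2 and CRABP2 again had no adjusted p. The medians were -0.05, 0.08 and 0.27 for KO against control across EtOH, DHT and FM, and -0.10, 0.22 and 0.21 for the FM comparisons, where the medians of all genes tested lay between -0.02 and 0.01.

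**Figure D3:**
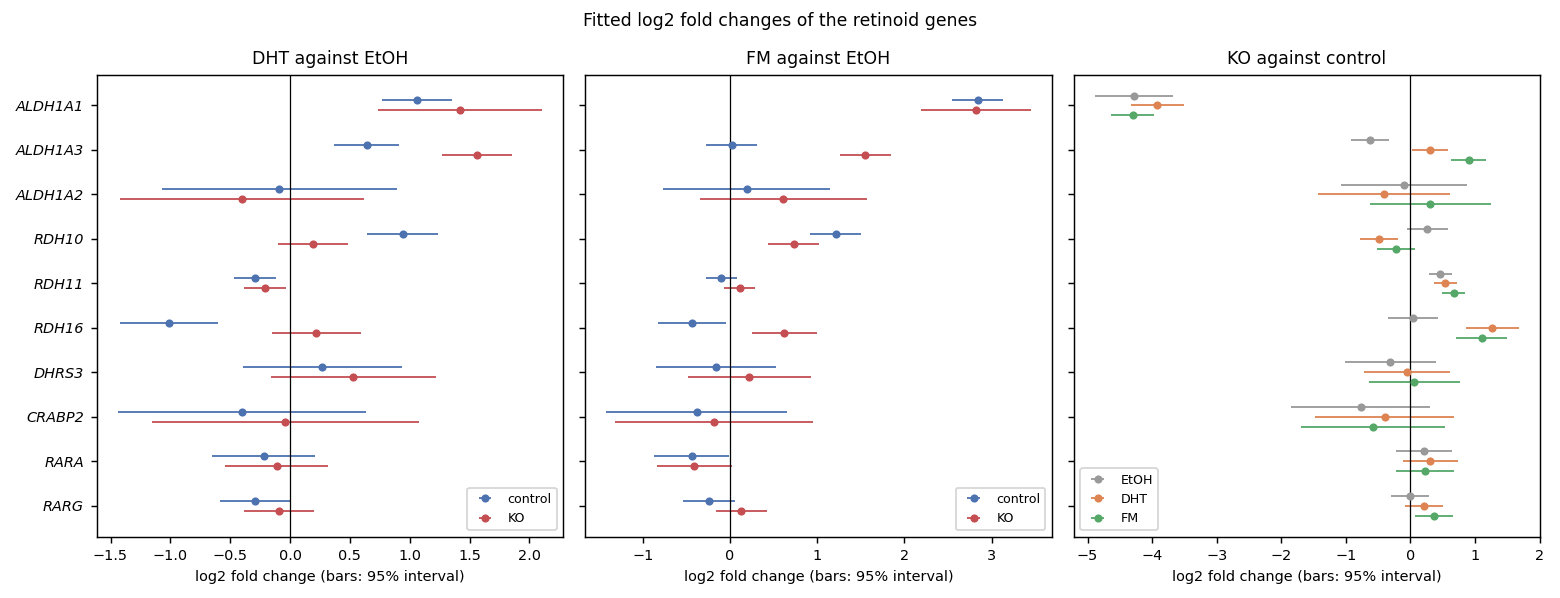
Fitted log2 fold changes (horizontal axis) of the 10 genes (vertical axis) with 95% intervals, for DHT against EtOH and FM against EtOH in each line and for KO against control in each medium. ALDH1A3 lies apart between the lines for DHT (0.64 and 1.56) and FM (0.02 and 1.55), and ALDH1A1 has the most negative values for KO against control. The intervals of ALDH1A1 for KO against control and of RDH16 are descriptions, since the genes were chosen on such values.

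The wider pathway was followed in 37 further retinoid genes, of which 30 passed the filter and 10 averaged 50 normalized counts or more. With DHT, 2 of the 17 tested passed in each line: ADH1C rose and RDH12 fell. This is near the share of all genes that passed, 6.04% higher and 5.37% lower in control and 4.43% and 3.24% in KO. ADH1C, an alcohol dehydrogenase that can oxidize retinol, had means of 30.7 in control EtOH, 198.8 in control DHT and 351.2 in control FM, and 14.6, 126.6 and 340.1 in KO. Its log2 fold change with DHT was 2.70 in control (SE 0.26, adjusted p = 5.66e-23) and 3.09 in KO (SE 0.33, adjusted p = 9.8e-19). It was lower in KO by -1.05 in EtOH (DESeq2 adjusted p = 0.0462) and by -0.66 in DHT (adjusted p = 0.0135), the single DESeq2 call among 14 tested in each. Of the 30 genes with a p, edgeR called 2 in EtOH and 1 in DHT. An unadjusted p under 0.05 was found for 5 in EtOH and 2 in DHT. Of all genes, 2.80% were higher in KO and 2.31% lower in EtOH, and 4.66% and 3.32% in DHT. ADH1C has close paralogs, so its counts are uncertain where reads could not be placed. RDH12, a retinal reductase named after its values were seen, was scarce, with means between 11.1 and 65.9. The difference in the DHT response passed in none of 12 (DESeq2, edgeR and unadjusted p under 0.05 alike gave 0), where 0.223% of all genes were higher and 0.185% lower.

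With FM against EtOH, 5 of 19 tested passed in control and 6 in KO. Of all genes tested, 9.81% were higher and 11.5% lower in control, and 9.61% and 9.68% in KO, so these counts are read against a high background. RXRA and RXRB, the partners of the retinoic acid receptors, fell in both lines. RXRA fell by 0.84 on the log2 scale in control (SE 0.12, adjusted p = 3.43e-10) and by 0.71 in KO (SE 0.12, adjusted p = 1.23e-07). RXRB fell by 0.66 (SE 0.12, adjusted p = 7.24e-07) and 0.79 (SE 0.12, adjusted p = 9.75e-10). TTR, a carrier of retinol-binding protein and thyroid hormone, fell by 1.54 in control (SE 0.17) and by 1.91 in KO (SE 0.17), and was lower in KO than in control in FM (-0.63, SE 0.17, adjusted p = 0.00465). RDH13 rose in KO (0.72, SE 0.16, adjusted p = 3.02e-05). In KO against control in FM, 2 of 13 passed, TTR lower and RDH12 higher, where 5.41% of all genes were higher and 2.60% lower. The difference in the FM response passed for none of 10 in DESeq2 or edgeR, with 2 at an unadjusted p under 0.05, where 0.748% of all genes were higher and 0.640% lower. The other falls, of RDH12 in control and of AKR1C3, a reductase of steroids and retinal, in KO, were of scarce genes seen after the test. ADH1C rose in FM by 3.52 in control (SE 0.26, adjusted p = 3.3e-40) and by 4.52 in KO (SE 0.32, adjusted p = 6.89e-42). The median log2 fold change of these genes was between -0.15 and 0.08 over the 9 comparisons.

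Genes known to be induced by retinoic acid were mostly scarce: of 22 measured, 17 passed the filter and 2, NRIP1 and MEIS1, had a mean of at least 50. RARB, a classical target, had means of at most 7.2, and CYP26B1 of 27.3 to 47.0. Depending on the comparison, 3 to 11 of them had an adjusted p. Of these genes MEIS1, a homeobox gene, was the one that passed in DESeq2. It was 1 of 10 tested for DHT in control, where 6.04% of all genes were higher. For FM against EtOH in control it was 1 of 11, where 9.81% were higher. Between the lines it was 1 of 8 in DHT and 1 of 8 in FM, where 3.32% and 2.60% of all genes were lower. The list also holds DHRS3 and CRABP2, and its median log2 fold change was between -0.48 and 0.33 over the comparisons. MEIS1 rose with DHT in control (0.75, SE 0.16, adjusted p = 2.54e-05) and in FM in control (0.72, SE 0.16, adjusted p = 3.72e-05), and was lower in KO in DHT (-1.12, SE 0.16, adjusted p = 2.1e-10) and FM (-0.89, SE 0.16, adjusted p = 1.38e-06). For DHT and for FM against EtOH in control, where DESeq2 called MEIS1 alone, edgeR called 3 genes each. In the other 5 comparisons none passed in DESeq2. The numbers tested were 10 for DHT in KO, 9 for KO against control in EtOH and 11 for FM against EtOH in KO. They were 5 and 3 for the differences in the DHT and FM responses. Of all genes, 0.185% to 9.68% passed in a given direction in these 5. In them, 1 to 3 genes had an unadjusted p under 0.05, and edgeR called 2 for FM against EtOH in KO and none in the other 4.

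The genes around RDH16 were listed to see whether its difference extended along chromosome 12. Of 76 genes with a start within 1 Mb and a mean of at least 10 normalized counts, 4 passed for KO against control with EtOH, 10 with DHT and 4 with FM. Of all genes tested, 2.80% were higher and 2.31% lower with EtOH, 4.66% and 3.32% with DHT, and 5.41% and 2.60% with FM. Calls in the region were thus about as frequent as over all genes with EtOH, more frequent with DHT and less frequent with FM. These differences in frequency were not tested. For the difference in response between the lines, 0 of the 76 passed with DHT and 0 with FM. Of all genes tested, 0.223% were higher and 0.185% lower for DHT, and 0.748% and 0.640% for FM. Some scarce neighbours had no adjusted p for these differences. For KO against control, most calls were higher in KO. The lower ones were DDIT3 (-1.06) and MYL6 (-0.80) in DHT and NXPH4 (-0.59) in EtOH. B4GALNT1 was higher in KO in each medium, by 0.90 in EtOH, 0.74 in DHT and 0.69 in FM. Away from the nearest genes, the largest values were those of APOF in FM (1.72, DESeq2 adjusted p = 0.00104) and EtOH (1.52, adjusted p = 0.02). INHBC in DHT followed (1.40, adjusted p = 0.0413). The nearest on the side of lower coordinates, SDR9C7, a related short-chain dehydrogenase, starts 25.0 kb away. Its FM samples held 69.6 and 55.4 normalized counts for control and 291.9 and 306.9 for KO (log2 fold change 2.26, SE 0.27, adjusted p = 8.6e-15), and its DHT samples 43.4 and 28.2 for control and 103.3 and 96.6 for KO (1.48, SE 0.30, adjusted p = 2.34e-05). HSD17B6, another member of this enzyme family, starts 207.2 kb away and was also higher in KO, by 0.87 in EtOH (SE 0.28, adjusted p = 0.0228), 0.87 in DHT (SE 0.27, adjusted p = 0.0132) and 1.05 in FM (SE 0.26, adjusted p = 0.000848). Other near genes did not pass for KO against control in any medium. ZBTB39, 47.2 kb away on the side of higher coordinates, lay between -0.02 and 0.27 (mean 575.0 normalized counts). PRIM1, 207.0 kb away on the side of HSD17B6, lay between -0.31 and 0.00 (mean 641.9). SDR9C7 shares none of its 50-base words with other genes. Unlike RDH16, SDR9C7 had low counts in EtOH, of 9.5 and 7.0 in control and 19.2 and 13.2 in KO. DHT raised SDR9C7 in both lines, by 2.12 in control (SE 0.45, DESeq2 adjusted p = 4.02e-05) and 2.64 in KO (SE 0.36, adjusted p = 6.96e-12). The difference between these responses was 0.53 (SE 0.57) and did not pass. RDH16, as a description, had -1.01 with DHT in control and 0.22 in KO.

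**Figure D4:**
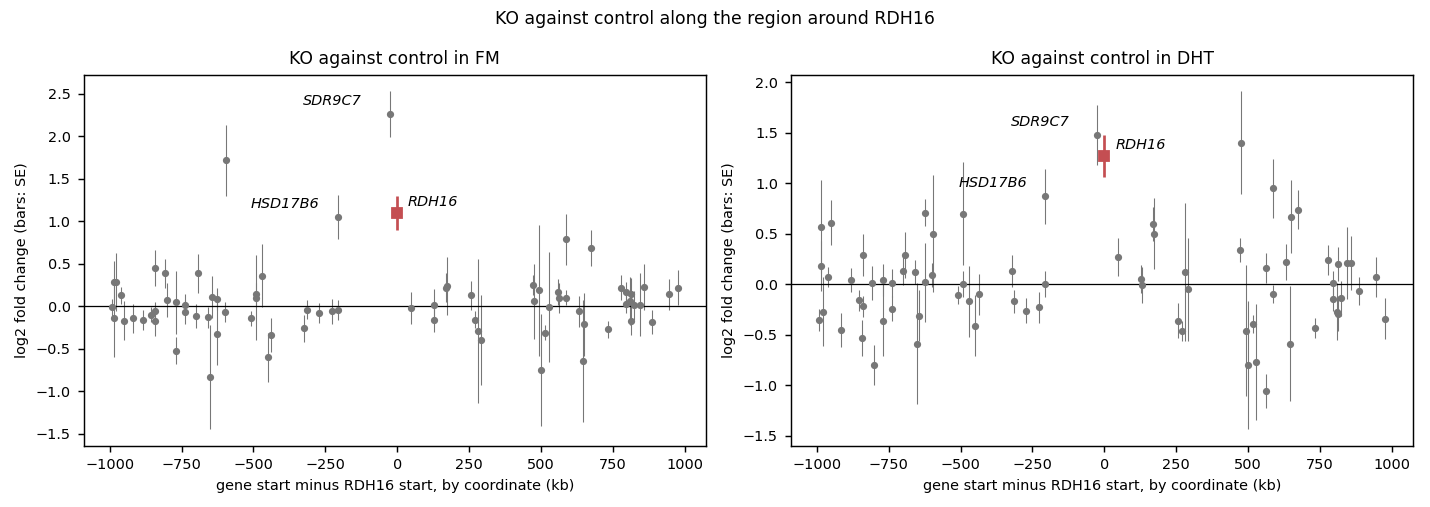
Log2 fold change of KO against control (vertical axis, bars are SE) of RDH16 (red square) and the 76 genes with a mean of at least 10 normalized counts that start within 1 Mb of it, against the distance between gene starts in kb (horizontal axis, negative for lower coordinates), in FM and in DHT. In FM, SDR9C7 lies at 2.26, RDH16 at 1.10 and HSD17B6 at 1.05, and APOF, 596.5 kb away, at 1.72.

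Around ALDH1A1, 3 genes with a mean of at least 10 normalized counts started within 1 Mb: ZFAND5, TMC1 and ANXA1. For KO against control they lay between -0.08 and 0.44 in EtOH and between -0.45 and 0.03 in FM. In DHT 1 of the 3 passed, ANXA1 (-1.23, DESeq2 adjusted p = 0.0219), where 4.66% of all genes were higher and 3.32% lower. Over the 12 samples, the genes whose pattern was most like that of ALDH1A1 were ACSM3 (Pearson r = 0.987 of log2 of the normalized count plus 1, among 11103 genes), PLOD2 (0.986), GNAI1 (0.983), RPS6KA3 (0.983) and UIMC1 (0.981). Pearson r does not measure the size of a change, and these genes differed in it. PLOD2, a collagen-modifying enzyme, had means of 690.0 in control FM and 73.9 in KO FM. The means in control FM and KO FM were 2213.1 and 1208.4 for ACSM3, and 1612.2 and 568.9 for GNAI1. For RPS6KA3 they were 6870.4 and 2790.8, and for UIMC1 1290.1 and 949.8. Those most like RDH16 were THEM6 (0.933), QRICH2 (0.921), GRIN1 (0.913), SLCO4A1 (0.908) and TMEM254-AS1 (0.899). The 12 samples share 2 lines and 3 media, so these values are descriptions of likeness.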

How the data were processed

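RNA-seq was analysed in 12 samples of 6 groups. The authors extracted RNA, prepared TruSeq stranded poly(A) libraries for a HiSeq instrument, mapped reads to GRCh37 with TopHat2 (2.0.11) and used HTSeq (0.5.3p3) to count reads per Ensembl gene, with CASAVA 1.7 named in the submitters' processing notes. The values deposited were raw counts per gene, not normalized. The strand setting and annotation release were not given in the sources used here. HTSeq leaves out reads that overlap several genes, which were 6.90% to 7.97% of all it tallied per sample.

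Differential expression was tested with DESeq2 (1.42.0, R 4.3.3) fitted to the 12 samples at once with 1 coefficient per group, over 26156 genes with at least 10 counts in sum. Size factors were medians of ratios, tests were Wald tests with unshrunken log2 fold changes, and p was adjusted by Benjamini-Hochberg over all genes tested. Labels call the replicates biological duplicates and do not say more, so p-values measure the spread between these samples. Replicate counts differed by more than sampling noise (chi-square per degree of freedom 3.19 to 36.46). The script was checked on simulated counts.

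Levels per kb are normalized counts divided by exon length in a GENCODE annotation on GRCh37 that held 55665 of the 63677 identifiers. Promoter windows are RefSeq's. Named genes were all 10 genes, BAG1, retinoid genes past the threshold with a mean of at least 50 (at most 4 a comparison), the 5 genes most like ALDH1A1 and RDH16 with a mean of at least 100, and neighbours with a mean of at least 10. The genes, lists and tests were chosen with earlier results of these data known. Protein sequences were not used here.

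Alternatives were edgeR's quasi-likelihood test (4.0.16), TMM size factors, other filters on low counts, thinned counts, a fit of only the groups compared, no fold minimum, replicate blocks, another gene length, CPM, and each replicate left out in turn.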

Additional observations from a re-analysis of the deposited data

Results flagged for a closer look

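ALDH1A3 was picked out because its responses differed between the lines by a test of the difference itself. The difference, KO minus control, was 0.92 on the log2 scale for DHT (DESeq2 adjusted p = 0.00371) and 1.53 for FM (adjusted p = 4.11e-10). Both use the same EtOH samples.

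RDH16 was picked out by the same comparison, with a difference of 1.23 for DHT and 1.05 for FM. The gene was chosen for this pattern, so both are descriptions.

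RDH11 and RARG were picked out because every FM sample lay on opposite sides of its EtOH samples in the 2 lines. The differences were small, 0.21 for RDH11 (adjusted p = 0.444) and 0.37 for RARG (adjusted p = 0.369), and neither passed the test.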

How the results depend on the processing

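Over the alternatives, no change that had passed reversed its direction. Of 1164 alternative values of tested changes, 1145 stayed on the same side of the threshold, 11 lost a call and 8 gained one. In a fit of only the groups compared, no gene passed for the difference in DHT response (1 in the fit of all samples; ALDH1A3 0.93, adjusted p = 0.167) or for KO against control in EtOH (1 to 0; ALDH1A3 -0.63, adjusted p = 0.112). With no fold minimum, 2 passed for KO against control in EtOH and 2 in DHT. Leaving out single replicates gave 1 to 2 genes for DHT in KO, 0 to 1 for the differing DHT response and for the EtOH comparison of the lines, and 0 to 2 for their DHT comparison. Replicate numbers were not taken to pair the samples: correlations of replicate deviations between groups ran from -0.415 to 0.692, over 0.1 in 6 of 15 pairs of groups. With a replicate block within each line, 0 genes passed for KO against control in EtOH (ALDH1A3 -0.54, adjusted p = 0.0584), and with the replicate block over both lines 1 did; the blocks changed no other count of calls. With the numbers of KO EtOH and control FM crossed, chosen after seeing the data, the count was the same as in the fit of all samples in each of the 9 comparisons. With the longest transcript as gene length, the ALDH1A1 share in control FM was 88.86% and in KO FM 18.1%. Depth limits the scarce genes: the 95% interval of CRABP2 for KO against control in EtOH ran from -1.84 to 0.30. The cause of the lost calls was not tested.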
